A study of Mus musculus with 8 samples.

Results

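The T cell receptor (TCR) complex and its proximal kinases were examined in mouse breast tumors through 9 genes of the 54532 in the count table. The members were chosen by gene name, as the chains that carry the receptor's signal (Cd3d, Cd3e, Cd3g and Cd247), the coreceptors (Cd4, Cd8a and Cd8b1) and the kinases that act at the receptor (Lck and Zap70). Tumors came from 4T1 cells (4T1-FLuc in the study's methods), a mouse triple-negative breast cancer (TNBC) line grown under the skin of immunocompetent female BALB/cJ mice that were 6 weeks old. Control mice received saline, which another field of their labels calls PBS, and treated mice received mAb-DXd/IMQ, labelled HumCD276-Dxd/IMQ. This conjugate joins a humanized antibody against CD276 to DXd, a topoisomerase I inhibitor, and to IMQ, an agonist of TLR7 and TLR8, and its 5 intravenous courses of 16 mg/kg were spaced 4 days apart. Bulk poly-A RNA-seq was made from 4 tumors per group, collected when the study ended, so that each library held RNA of the tumor line and of every host cell in the tumor.

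The TCR itself has almost no cytoplasmic tail, and its signal is carried by the CD3 chains and by the zeta chain, which bear the tyrosine motifs that become phosphorylated. CD4 binds MHC class II and CD8 binds MHC class I, and both bring the kinase LCK to the engaged receptor. LCK phosphorylates the CD3 and zeta tails, ZAP70 docks on them and is activated in turn, and it then phosphorylates adaptors such as LAT. In tumors, these transcripts come mostly from infiltrating T cells, while natural killer (NK) cells also use the zeta chain, LCK and ZAP70, and some dendritic cells carry CD4 or CD8.

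All 9 members passed the filter on low counts, and the mean of each was lower with mAb-DXd/IMQ (treated tumors) than with saline (controls). Cd4 and Cd8a, 2 of the 9, fell past both thresholds of the study, an adjusted p (FDR) below 0.05 together with a log2 fold change (log2FC) beyond 0.58 in either direction. Across the 18511 genes tested with edgeR, 1.06% passed in either direction and 0.519% passed as lower. The log2FCs of the members ran from -1.91 for Cd4 to -0.39 for Lck, with a median of -0.98, beside a median of 0.022 over all tested genes. In 6 of the 9 members, every mAb-DXd/IMQ tumor was below every saline tumor in library-scaled counts (CPM), and 7.1% of tested genes had this pattern. These are RNA levels of whole tumors, in which fewer cells of a type and less RNA per cell cannot be told apart. Saline tumors had 45019927 to 69582375 total counts and mAb-DXd/IMQ tumors 34591912 to 51625237, and the members' own counts ran from 31 for Cd247 to 2331 for Cd8a.

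**Figure D1:**
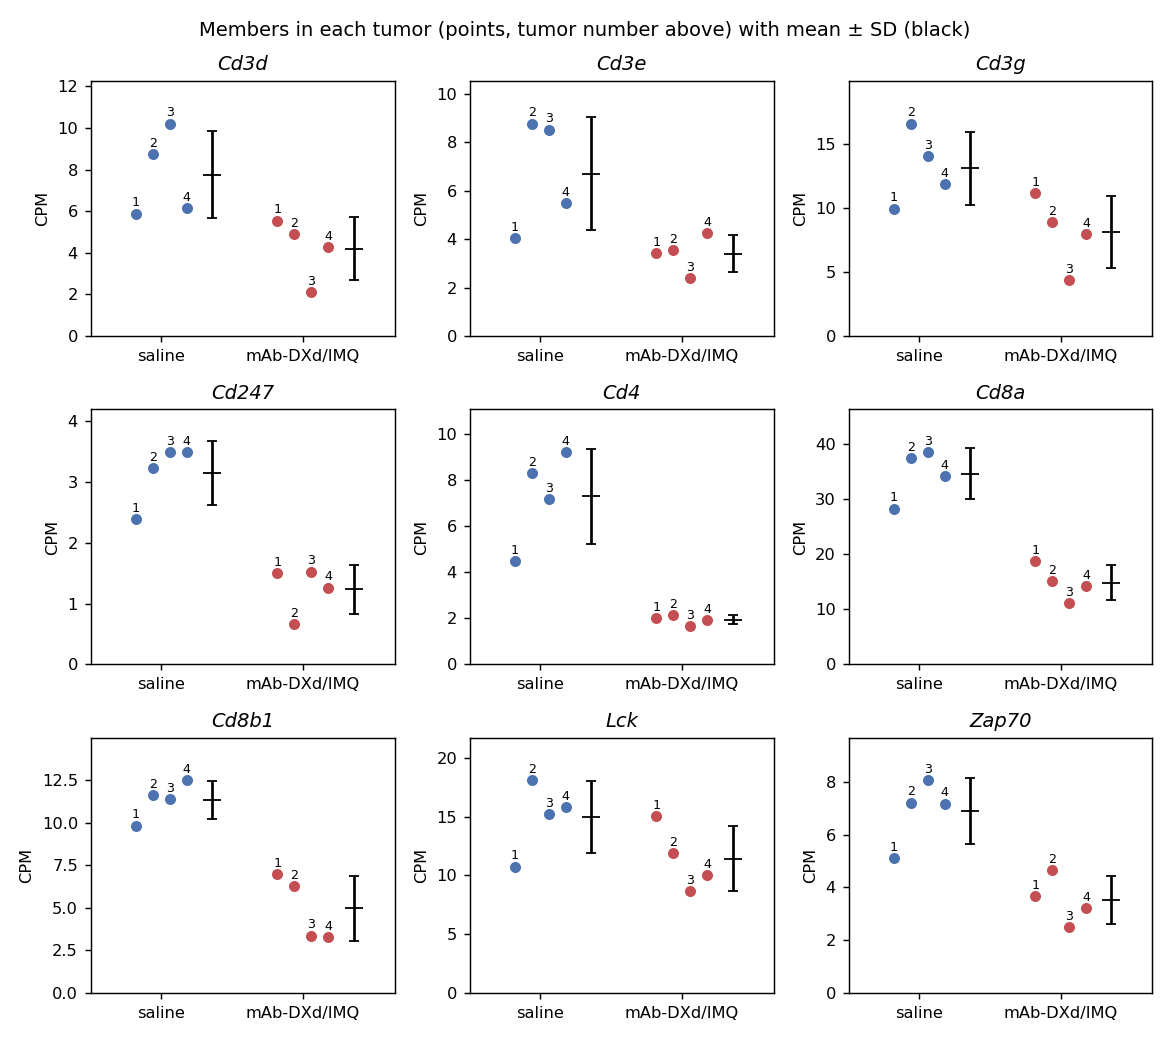
CPM (scaled by TMM) of each member in each tumor, with the tumor number above each point and the group mean ± SD (n = 4 tumors) in black. Cd247, Cd4, Cd8a, Cd8b1, Zap70 and Cd3d separate the groups, while Cd3e, Cd3g and Lck overlap, and saline tumor 1 is the lowest saline tumor in 9 of 9 panels.

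The genes of the CD3 chains lie together on chromosome 9 (GRCm38). Cd3d (ENSMUSG00000032094, 44981786 to 44987339, plus strand) and Cd3g (ENSMUSG00000002033, 44969572 to 44980431, minus strand) stand head to head, with 1355 bases between their starts. Cd3e (ENSMUSG00000032093, 44998740 to 45009627, minus strand) starts 27841 bases from Cd3d. The promoter windows of these neighbors, which were lower together, follow, with that of Cd8a, the more abundant of the genes that passed, each running from 250 bases before to 50 bases after a start (RefSeq, GRCm38.p6). Capitals mark matches on either strand to GGAAG, a core bound by ETS factors, TGNGGT, bound by RUNX factors, and CANNTG, the E-box, all of which are families that act in T cells. Among all 32851 windows of this length, 71.4% held GGAAG, 45.8% held TGNGGT and 72.3% held CANNTG.
Cd3d, chr9:44981536-44981835, plus strand: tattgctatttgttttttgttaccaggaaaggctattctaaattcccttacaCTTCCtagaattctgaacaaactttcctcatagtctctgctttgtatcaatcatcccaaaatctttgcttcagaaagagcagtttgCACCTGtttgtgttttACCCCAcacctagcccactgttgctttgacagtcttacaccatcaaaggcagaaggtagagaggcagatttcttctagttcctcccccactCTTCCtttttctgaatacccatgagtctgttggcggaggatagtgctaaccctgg
Cd3g, chr9:44980382-44980681, minus strand: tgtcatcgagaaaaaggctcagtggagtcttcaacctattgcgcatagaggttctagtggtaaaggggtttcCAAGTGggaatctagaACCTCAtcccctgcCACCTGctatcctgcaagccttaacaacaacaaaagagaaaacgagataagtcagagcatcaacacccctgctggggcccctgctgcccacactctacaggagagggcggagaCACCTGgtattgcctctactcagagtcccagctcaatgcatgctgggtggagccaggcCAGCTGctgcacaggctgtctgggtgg
Cd3e, chr9:45009562-45009861, minus strand: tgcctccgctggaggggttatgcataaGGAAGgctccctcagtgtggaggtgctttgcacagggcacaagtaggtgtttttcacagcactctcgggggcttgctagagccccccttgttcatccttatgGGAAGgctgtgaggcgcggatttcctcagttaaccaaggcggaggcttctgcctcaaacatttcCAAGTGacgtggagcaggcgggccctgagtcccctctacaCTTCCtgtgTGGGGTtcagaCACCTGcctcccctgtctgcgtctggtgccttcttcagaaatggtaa
Cd8a, chr6:71373177-71373476, plus strand: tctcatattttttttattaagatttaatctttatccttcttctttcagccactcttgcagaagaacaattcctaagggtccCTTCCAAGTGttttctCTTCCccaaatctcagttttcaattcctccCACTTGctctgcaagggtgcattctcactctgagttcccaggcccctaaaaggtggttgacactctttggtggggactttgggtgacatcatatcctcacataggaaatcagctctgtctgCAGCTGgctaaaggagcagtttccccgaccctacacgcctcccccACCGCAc
The Cd3d window held 2 matches to GGAAG, 1 to TGNGGT and 1 to CANNTG, and the Cd3e window held 3, 1 and 2. The Cd3g window held 0 matches to GGAAG, 1 to TGNGGT and 4 to CANNTG. The Cd8a window held 2, 1 and 3, with a match to GGAAG and an E-box overlapping in 1 place. A match describes letters in these windows and is not a measured binding site. Of the 9 members, 7 had an entry in the promoter table, with 10 windows in all, since Lck and Zap70 have more than 1 start. The members without an entry were Cd4 and Cd8b1.

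CD3 delta pairs with CD3 epsilon in the receptor complex. Cd3d had 5.88, 8.73, 10.2 and 6.14 CPM in controls 1 to 4 and 5.55, 4.88, 2.10 and 4.27 CPM in treated tumors 1 to 4. The groups did not overlap, but the highest treated tumor lay close under saline tumors 1 and 4, and treated tumor 3 was the lowest. Its log2FC was -0.88 (standard error, SE, 0.31, adjusted p = 0.155), which did not pass. Cd3e, whose product is required for assembly of the complex, had 4.05, 8.78, 8.53 and 5.49 CPM in controls and 3.42, 3.53, 2.38 and 4.24 CPM in treated tumors. Treated tumor 4 was above saline tumor 1, and the other 3 treated tumors were below every saline tumor. The log2FC of Cd3e was -0.98 (SE 0.29, adjusted p = 0.106). Cd3g, which encodes the gamma chain, had 9.93, 16.6, 14.01 and 11.8 CPM in controls and 11.1, 8.87, 4.37 and 7.95 CPM in treated tumors. Here treated tumor 1 was above saline tumor 1 and close to saline tumor 4, and treated tumor 3 was again the lowest of the 8. With a log2FC of -0.69 (SE 0.27, adjusted p = 0.20), Cd3g did not pass.

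Cd247 (ENSMUSG00000005763, chromosome 1, 165788681 to 165877277, plus strand) encodes the zeta chain, which carries more of the tyrosine motifs than any CD3 chain. It had 2.39, 3.23, 3.49 and 3.50 CPM in controls and 1.51, 0.664, 1.53 and 1.26 CPM in treated tumors. The groups were well apart, with treated tumor 2 the lowest and saline tumor 1 the lowest of the controls. The log2FC was -1.34 (SE 0.31), next in size to that of Cd4, and the adjusted p of 0.0574 was just above the threshold. Cd247 was the scarcest member, and its counts are less certain than those of the others. On the opposite strand, Pou2f1, named for this overlap, shares 3007 exonic bases with it, which is 56.4% of its exon length, and collected 777 to 1774 counts per tumor. Whether the counting used strand is not given in the sources used here, so reads in the shared bases cannot be assigned with certainty. Pou2f1 had a log2FC of -0.36 (SE 0.17, adjusted p = 0.28), and its part in the difference of Cd247 was not tested. Cd3e overlapped the antisense gene Gm48719, whose counts came to 2.12% of its own.

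CD4 and CD8 mark helper and cytotoxic T cells, the main classes of T cells with an alpha-beta receptor. Cd4 (ENSMUSG00000023274, chromosome 6, 124864692 to 124888221, minus strand) had 4.48, 8.30, 7.17 and 9.22 CPM in controls and 2.02, 2.14, 1.66 and 1.94 CPM in treated tumors. The treated tumors were nearly alike, with a coefficient of variation of 10.5%, while the saline tumors varied by 28.2% around their mean. Even saline tumor 1, the lowest control, was above the highest treated tumor. Cd4 fell by 1.91 on the log2 scale (SE 0.25, adjusted p = 0.0201), to 26.6% of its saline level. Cd8a (ENSMUSG00000053977, chromosome 6, 71373427 to 71379173, plus strand), which encodes the alpha chain of CD8, had 28.2, 37.4, 38.5 and 34.1 CPM in controls and 18.8, 15.1, 11.1 and 14.2 CPM in treated tumors. There was no overlap, with treated tumor 1 the highest and treated tumor 3 the lowest of its group. Cd8a fell by 1.22 on the log2 scale (SE 0.17, adjusted p = 0.0201), to 42.9% of its saline level.

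Cd8b1 (ENSMUSG00000053044, 71322788 to 71337494, plus strand) lies 35932 bases from Cd8a on the same chromosome and encodes the beta chain, which is typical of conventional cytotoxic T cells, whereas the alpha chain also occurs without it. Its values were 9.83, 11.6, 11.4 and 12.5 CPM in controls and 6.97, 6.25, 3.36 and 3.26 CPM in treated tumors. The saline tumors lay close together, with a coefficient of variation of 9.72%, and the treated tumors formed a higher pair (1 and 2) and a lower pair (3 and 4), all below the controls. The log2FC of -1.19 (SE 0.26) was near that of Cd8a, and the adjusted p of 0.0536 did not pass. Cd8b1 passed in 7 of 21 alternatives, including 1 of the 8 fits without 1 tumor. That fit, without treated tumor 1, gave a log2FC of -1.40 (adjusted p = 0.0428, within a range of 0.000535 to 0.639 over the 21 alternatives).

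The falls of Cd4 and Cd8a kept their direction in every alternative fit, and each passed in 15 of 21, 5 of them among the 8 fits with a tumor omitted. The alternative without a fold change limit reuses the reported fit, so genes that passed there passed here by construction. The test against a 1.5-fold change (glmTreat) also reuses its log2FCs, so their direction could not differ. Cd4 did not pass without saline tumor 3, saline tumor 4 or treated tumor 4, with log2FCs of -1.92, -1.77 and -1.90 and adjusted p of 0.0658, 0.0846 and 0.0694. For Cd8a, the same omissions gave -1.17, -1.22 and -1.20 with the same adjusted p. Over all alternatives, the adjusted p lay between 2.17e-10 and 0.0983 for Cd4 and between 2.97e-08 and 0.171 for Cd8a. The number of genes that passed across the genome dropped from 197 to 10, 11 and 12 in these 3 fits.

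Lck (ENSMUSG00000000409, chromosome 4, 129548344 to 129573641, minus strand), the kinase that the coreceptors bring to the TCR, differed least among the members. It had 10.7, 18.1, 15.2 and 15.8 CPM in controls and 15.02, 11.9, 8.69 and 10.03 CPM in treated tumors. Treated tumors 1 and 2 were above saline tumor 1, and treated tumor 1 nearly reached saline tumor 3. The log2FC was -0.39 (SE 0.21, adjusted p = 0.348). Zap70 (ENSMUSG00000026117, chromosome 1, 36761798 to 36782818, plus strand), which docks on the phosphorylated chains, had 5.13, 7.22, 8.06 and 7.18 CPM in controls and 3.67, 4.67, 2.49 and 3.23 CPM in treated tumors. All treated tumors were below saline tumor 1, the lowest control, and treated tumor 2 came nearest to it. Zap70 had a log2FC of -0.97 (SE 0.24, adjusted p = 0.0679), which did not pass.

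**Figure D2:**
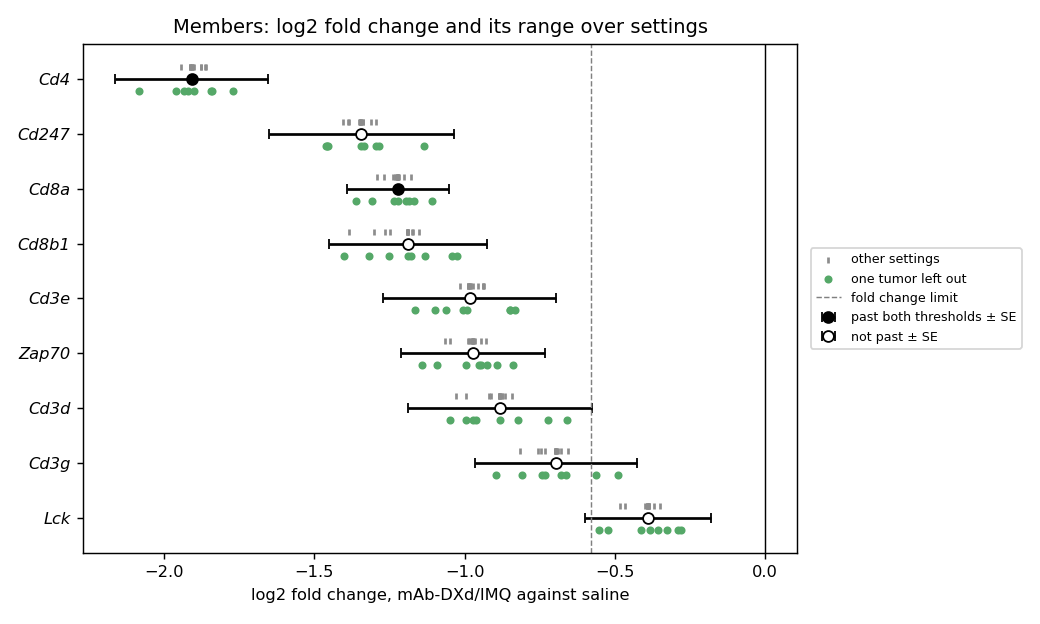
Log2 fold change of each member between mAb-DXd/IMQ and saline tumors (circles, ± standard error), with other processing settings (grey ticks) and fits without 1 tumor (green points). Every value lies below 0. The circles run from -1.91 for Cd4 to -0.39 for Lck, and only Cd4 and Cd8a are past both thresholds (filled).

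The tumors did not vary independently from member to member. Saline tumor 1 was the lowest control for 9 of 9 members, and mAb-DXd/IMQ tumor 3 was the lowest treated tumor for 7 of 9, with Cd247 lowest in tumor 2 and Cd8b1 lowest in tumor 4. Summed over the 9 members, saline tumors had 80.7, 119.9, 116.6 and 105.7 CPM and mAb-DXd/IMQ tumors had 68.1, 58.1, 37.7 and 50.4 CPM. The lowest control was thus above the highest treated tumor. Without saline tumor 1, the log2FCs of Cd4 and Cd8a were -2.09 and -1.31, and both passed.

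Levels were compared between members per kilobase of the gene length given by the authors. In saline tumors, Cd8a was highest at 9.50 ± 1.27 CPM per kilobase (SD, n = 4), followed by Cd8b1 at 7.64 ± 0.743 and Lck at 5.11 ± 1.05. Lck, Cd3d (4.27 ± 1.15) and Cd3g (4.00 ± 0.873) followed each other by less than the SD of the more variable gene of each pair. The lower part of the order was Zap70 (2.31 ± 0.417), Cd4 (1.81 ± 0.509) and Cd3e (1.645 ± 0.568), in which neighbors again differed by less than their spread, and Cd247 was lowest at 0.592 ± 0.098. In mAb-DXd/IMQ tumors, the level of Lck at 3.90 ± 0.936 CPM per kilobase came between those of Cd8a (4.07 ± 0.867) and Cd8b1 (3.35 ± 1.30). There Cd8a, Lck, Cd8b1, Cd3g (2.47 ± 0.861) and Cd3d (2.31 ± 0.824) followed each other within their spread. Zap70 (1.17 ± 0.304), Cd3e (0.832 ± 0.188), Cd4 (0.481 ± 0.0508) and Cd247 (0.233 ± 0.0756) then descended by steps larger than their SDs. Cd4 therefore stood above Cd3e in the mean of saline tumors, though in 2 of 4 of them only, and below it in 4 of 4 mAb-DXd/IMQ tumors. The order depends on the length used. With the longest protein-coding transcript in its place, an alternative added after the data were seen, Cd3g was highest at 12.8 ± 2.79 in controls and 7.90 ± 2.75 in treated tumors, and Cd4 was below Cd3e in both groups.

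**Figure D3:**
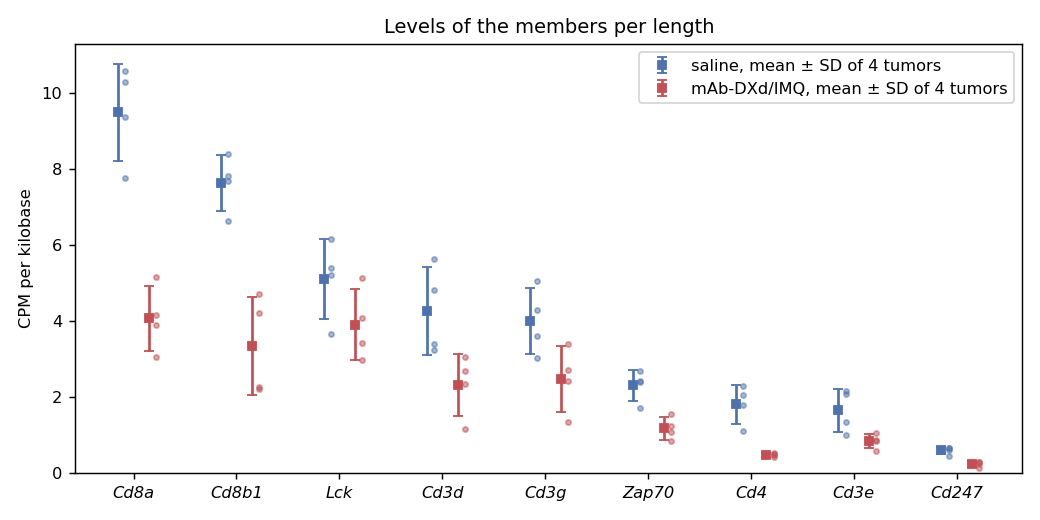
Level of each member in CPM per kilobase of annotated gene length, as mean ± SD of 4 tumors (squares) with single tumors beside them (small circles), for saline (blue) and mAb-DXd/IMQ (red). Cd8a and Cd8b1 lead in controls at 9.50 and 7.64, and in treated tumors Lck, at 3.90, lies between them.

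Ratios between members within a tumor do not depend on the library size or its scaling. They ask whether the proportions of the members' transcripts differed between groups. In RNA of whole tumors, a different mix of cells and different RNA per cell cannot be told apart, and the make-up of the protein complex was not measured. For each of 9 ratios, log2 values were compared by a two-sided exact permutation test over the 70 assignments of the 8 tumors, whose smallest p is 0.0286, with adjustment over the 9 ratios. The log2 ratio of Cd4 to Cd8a was -2.65, -2.17, -2.42 and -1.89 in controls and -3.20, -2.81, -2.73 and -2.85 in treated tumors. The groups did not overlap, although saline tumor 1 came close to treated tumor 3. The difference was -0.62 (exact permutation test, p = 0.0286, adjusted p = 0.129), so that counts of Cd4 relative to Cd8a were 0.206 and 0.134 in the geometric means of the groups. The log2 ratio of Cd4 to Cd3e was 0.14, -0.080, -0.25 and 0.75 in controls and -0.75, -0.72, -0.51 and -1.12 in treated tumors. Again every treated tumor was below every saline tumor, with saline tumor 4 the highest. This difference was -0.92 (exact permutation test, p = 0.0286, adjusted p = 0.129). Neither ratio passed adjustment, although both reached the smallest p that 4 tumors per group allow. At that p, a ratio can pass adjustment only if most of the 9 ratios reach it too. The adjusted values therefore cannot decide whether these ratios differed.

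The log2 ratio of the chains of CD8, Cd8b1 to Cd8a, averaged -1.60 ± 0.14 in controls and -1.63 ± 0.37 in treated tumors (SD, n = 4), a difference of -0.030 that was smaller than either SD (exact permutation test, p = 0.914, adjusted p = 0.943). The range was wider in treated tumors, as controls ran from -1.75 to -1.45, while treated tumors 1 and 2 were above all of them (-1.43 and -1.27) and treated tumor 4 was below (-2.11). Among the CD3 chains, the log2 ratio of Cd3d to Cd3e differed by 0.0091 and that of Cd3g to Cd3e by 0.19 (exact permutation tests, p = 0.943 and 0.486). The ratio of Zap70 to Cd3e differed by -0.047 (exact permutation test, p = 0.914). For Lck to Cd3e, the log2 ratio was 1.40, 1.04, 0.84 and 1.52 in controls and 2.13, 1.75, 1.86 and 1.24 in treated tumors. Treated tumor 4 lay among the controls, and the other 3 treated tumors were above every saline tumor. The difference was 0.54 (exact permutation test, p = 0.0857, adjusted p = 0.257). The ratios of Cd247 and Cd8a to Cd3e differed by -0.45 and -0.30, within overlapping groups (exact permutation tests, p = 0.371 and 0.257).

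**Figure D4:**
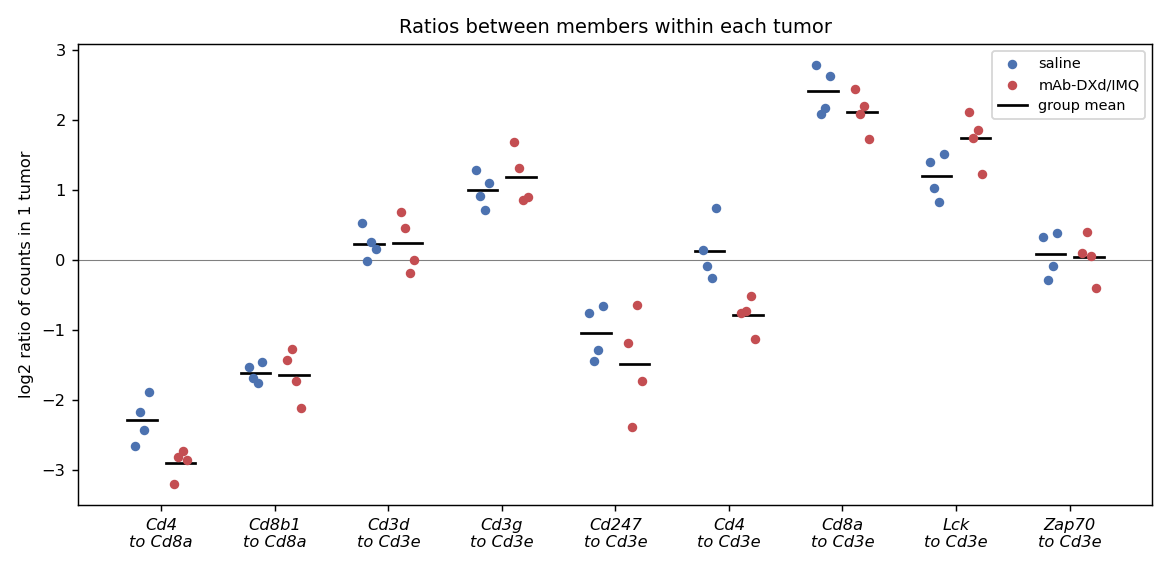
Log2 ratio of counts between pairs of members within each tumor (points), for saline (blue) and mAb-DXd/IMQ (red), with group means as black lines. The ratios of Cd4 to Cd8a and of Cd4 to Cd3e are lower in all mAb-DXd/IMQ tumors, by 0.62 and 0.92 in the means, and the other 7 ratios overlap between groups.

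The members were also set against Ptprc, the CD45 gene of all leukocytes, which was chosen after its values were seen. Ptprc had 125.3, 176.2, 150.6 and 169.6 CPM in controls and 125.5, 121.3, 192.7 and 118.8 CPM in treated tumors. Treated tumor 3 was the highest of all 8 for Ptprc, while it was the lowest of its group for most members. Relative to Ptprc, 9 of 9 members had lower means in treated tumors, by -1.68 (log2) for Cd4, -1.06 for Cd8a and -0.22 for Lck. On this scale 5 of the 9 separated the groups fully, which were Cd247, Cd4, Cd8a, Cd8b1 and Zap70, as did 0.767% of the 18510 other tested genes in this direction. The log2 ratios of Cd3d, Cd3e, Cd3g and Lck to Ptprc overlapped between groups.

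The constant genes of the receptor chains were 7 of 7 lower in mean, with 0 past the thresholds in edgeR (2 had an unadjusted p under 0.05, and DESeq2 passed 2). Over all 18511 tested genes, 18.9% had an unadjusted p under 0.05 in edgeR, and DESeq2 passed 4.25%, in either direction. Trac, which encodes the alpha chain's constant region, had 3.51, 6.91, 4.62 and 5.22 CPM in controls and 3.38, 2.51, 1.38 and 2.30 CPM in treated tumors. These groups did not overlap, and as for the members, treated tumor 3 was lowest and saline tumor 1 was the lowest control. The log2FC of Trac was -1.08 (SE 0.31, adjusted p = 0.0988). The beta chain constant genes differed from each other, with -0.74 for Trbc2 (SE 0.21, adjusted p = 0.0957) and -0.040 for Trbc1 (SE 0.28, adjusted p = 0.959). Trbc1 and Trbc2 are near-identical copies, and reads shared between them make both values uncertain.

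Farther along the pathway, genes were taken from lists of kinases, adaptors, effectors and negative regulators. With the constant genes, these 5 lists held 55 tested genes, of which 50 were lower in mean, a share of 90.9%, beside 47.4% of all tested genes. Their median log2FC was -0.35. Of 6 other kinases, 5 were lower, with a median of -0.32.

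Among 15 adaptors, 13 were lower and 0 passed (7 had an unadjusted p under 0.05, beside 18.9% of all tested genes, and DESeq2 passed 4, beside 4.25%), with a median of -0.51. Lat, the scaffold phosphorylated by ZAP70, had a log2FC of -0.80 (SE 0.22, adjusted p = 0.0918), and Themis, which acts in T cell development, had -1.10 (SE 0.30, adjusted p = 0.086). All 14 effectors were lower, with a median of -0.29, and 1 passed. This was Nfatc1, a transcription factor that calcium signaling sends to the nucleus and that other cell types also express, at 66.4 ± 6.41 CPM in controls and 41.5 ± 6.38 CPM in treated tumors (SD, n = 4). It fell by 0.68 on the log2 scale (SE 0.13, adjusted p = 0.0362), and passed in 10 of 21 alternatives, including 1 of the 8 fits without 1 tumor. Of 13 negative regulators, 11 were lower and 0 passed in edgeR (4 had an unadjusted p under 0.05, and DESeq2 passed 2), with a median of -0.14. The lowest p among them belonged to the ubiquitin ligase gene Cblb (log2FC -0.59, SE 0.13, adjusted p = 0.0517) and to Ubash3a (-1.25, SE 0.37, adjusted p = 0.106), which dampens ZAP70 signaling.

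Of 12 other surface and lineage genes of T cells, 9 were lower and 3 higher, with a median of -0.84. Cd2, an adhesion receptor of T and NK cells, had 4.46, 3.97, 4.46 and 6.42 CPM in controls and 1.26, 2.61, 1.24 and 2.00 CPM in treated tumors. All treated tumors were below the controls, and Cd2 fell by 1.44 on the log2 scale (SE 0.30, adjusted p = 0.0458). It passed in 9 of 21 alternatives and in 0 of the 8 fits without 1 tumor (edgeR, with an unadjusted p of 0.000546 over all tumors). Genes of this list did not all lie on the same side, as Gimap5 and Tcf7, named after their values were seen, had log2FCs of 1.05 and 0.69 (adjusted p = 0.0812 and 0.142). Thy1, the most abundant gene of the list and also a gene of fibroblasts, had 103.4 ± 15.3 and 132.9 ± 30.9 CPM (log2FC 0.36, adjusted p = 0.279).

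**Figure D5:**
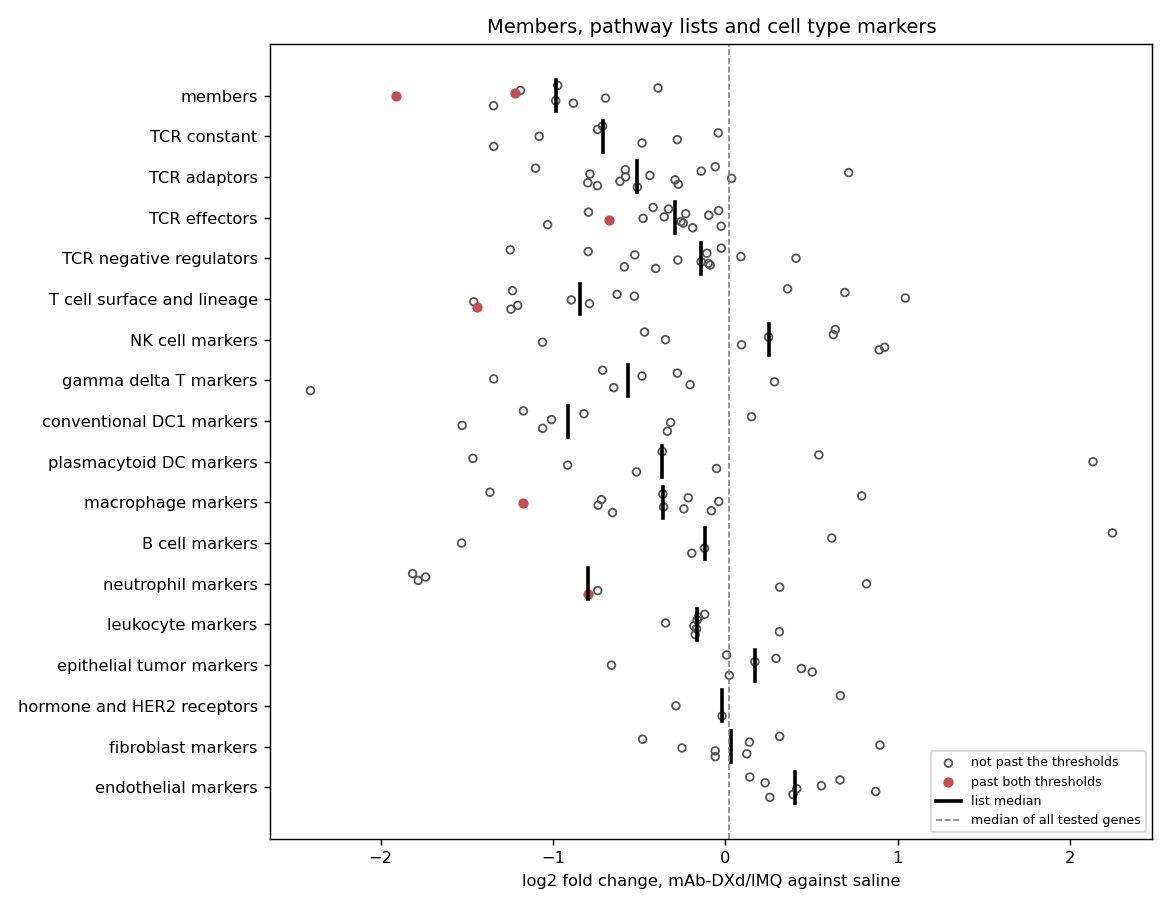
Log2 fold change of each tested gene (circles, filled where past both thresholds) by list (kinases not drawn), with list medians as black bars and the median of all tested genes as a dashed line. The members have a median of -0.98, the T cell surface genes -0.84, the NK cell markers 0.25 and the leukocyte markers -0.16.

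Markers of other cells that can express members were read in the same fit. NK cells use the zeta chain, LCK and ZAP70, and of the 9 tested of 12 NK cell markers, 6 were higher, 3 were lower and 0 passed (edgeR, 3 with an unadjusted p under 0.05, beside 18.9% of all tested genes, and 2 passed with DESeq2, beside 4.25%), with a median of 0.25. Summed over the list, saline tumors had 35.5, 50.6, 55.2 and 60.0 CPM and mAb-DXd/IMQ tumors 43.2, 47.3, 39.6 and 53.3 CPM. These sums overlapped, with Klrk1 the most abundant gene (15.9 ± 4.25 and 11.5 ± 1.43 CPM) and Klra8 at 0 counts in all tumors. Eomes, a transcription factor of NK and memory T cells, had a log2FC of 0.89 and Klrc2, an NK receptor with close relatives, had -1.06 (adjusted p = 0.0885 and 0.0544). Markers of gamma delta T cells were 7 of 8 lower (10 listed) with 0 past the thresholds (edgeR, 1 with an unadjusted p under 0.05, and DESeq2 passed 0), and 4 of them are receptor constant genes that the list above also holds. Their sums, 81.3, 184.6, 115.8 and 134.6 CPM in controls and 93.5, 103.5, 89.7 and 94.2 CPM in treated tumors, overlapped. The most abundant was Maf (68.2 ± 37.5 and 43.5 ± 6.78 CPM), which macrophages also express (log2FC -0.65, adjusted p = 0.304), and Cd163l1 had the lowest p, with a log2FC of -2.41 (SE 0.91, adjusted p = 0.188) at 25 counts over the treated tumors.

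Type 1 conventional dendritic cells can express Cd8a, and 7 of their 8 markers were lower, with a median of -0.91 and 0 past the thresholds (edgeR, 5 with an unadjusted p under 0.05, beside 18.9% of all tested genes, and 2 passed with DESeq2, beside 4.25%). Without saline tumor 1, 3 of these markers passed in edgeR, and without any other tumor 0 did. Their sums were 270.7, 313.5, 290.5 and 274.5 CPM in controls and 234.7, 237.5, 261.7 and 213.6 CPM in treated tumors. The sums did not overlap and were lower in the mean of the treated group. Within that group, tumor 3 had the highest sum and the lowest Cd8a. The part of these cells in the fall of Cd8a was not tested. None of the markers was at 0, and each of the 8 overlapped between groups when taken alone. Xcr1 and Clec9a, named after their values were seen, had the largest differences of the list (log2FC -1.17, SE 0.49, adjusted p = 0.226, and -1.53, SE 0.58, adjusted p = 0.194), with saline tumors 2, 3 and 4 above every treated tumor and saline tumor 1 below. The largest part of the sum was Irf8, the most abundant gene and one that macrophages also express, at 131.8 ± 13.2 and 105.8 ± 9.81 CPM. Cadm1 and Itgae had log2FCs of -1.06 and -1.01 (adjusted p = 0.119 and 0.121). Plasmacytoid dendritic cells can express Cd4, and 5 of their 7 tested markers were lower, with a median of -0.37 and 0 past the thresholds (edgeR, 3 with an unadjusted p under 0.05, and DESeq2 passed 0). Their sums, at 186.1, 253.3, 234.0 and 235.6 CPM in controls and 199.7, 208.6, 146.4 and 180.6 CPM in treated tumors, overlapped. Most of the sum was Tcf4 (219.3 ± 29.6 and 170.2 ± 23.7 CPM), which is widely expressed, and Ly6d, also a keratinocyte gene, had a log2FC of 2.13 (adjusted p = 0.172). Siglech, named after its values were seen, had a log2FC of -1.46 (SE 0.60, adjusted p = 0.222), with groups that overlapped. The part of these cells in the fall of Cd4 was not tested.

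Some macrophages also carry CD4 in other species, and 11 of 12 macrophage markers were lower here, with a median of -0.36. Their sums were 988.1, 3260, 1815 and 2089 CPM in controls and 1840, 1512, 1599 and 1234 CPM in treated tumors and overlapped, with C1qa the most abundant (468.5 ± 180.2 and 443.1 ± 89.1 CPM). The gene past the thresholds was the scavenger receptor gene Cd163, which fell by 1.17 on the log2 scale (SE 0.24, adjusted p = 0.045) and passed in 0 of the 8 fits without 1 tumor. Leukocyte markers as a whole were 7 of 8 lower with a median of -0.16, and 0 passed or had an unadjusted p under 0.05 (edgeR and DESeq2 alike for the thresholds). Their sums were 827.2, 1490, 1056 and 1164 CPM in controls and 1061, 941.0, 1113 and 868.3 CPM in treated tumors, so saline tumor 1 was the lowest of the 8 here as well, and the groups overlapped. Laptm5 was the most abundant (315.9 ± 108.6 and 248.5 ± 29.4 CPM), and Cd52 had a log2FC of 0.31 (adjusted p = 0.333).

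The tumors carried the epithelial RNA that the label calls for, with Krt18 at 637.4 ± 37.1 CPM in controls and 718.4 ± 174.3 CPM in treated tumors. Of the receptors whose proteins define TNBC by their absence, Pgr had 0.367 ± 0.281 and 0.578 ± 0.191 CPM, whereas Esr1 had 19.1 ± 1.14 and 15.7 ± 1.60 CPM and Erbb2 102.2 ± 19.7 and 100.9 ± 14.1 CPM, in RNA of tumor and host cells together. Among neutrophil markers, 5 of 7 were lower, with a median of -0.80 and 4 at an unadjusted p under 0.05, and Csf3r fell by 0.80 on the log2 scale (SE 0.16, adjusted p = 0.0402), passing in 1 of the 8 fits without 1 tumor. S100a8 (log2FC -1.74, adjusted p = 0.0521) and S100a9 (-1.81, adjusted p = 0.0598), named after their values were seen, were lower in every treated tumor than in any control. The sum of the list overlapped between groups, but most of it was Mmp9, whose log2FC was 0.82 (adjusted p = 0.298). The part of neutrophils in the results of the members was not tested. Epithelial, fibroblast, endothelial and B cell markers had medians of 0.17, 0.034, 0.40 and -0.12, with 6 of 7, 4 of 8, 8 of 8 and 2 of 5 tested genes higher and 0 past the thresholds in edgeR (1, 2, 2 and 2 genes had an unadjusted p under 0.05, beside 18.9% of all tested genes, and DESeq2 passed 0, 1, 1 and 2, beside 4.25%). Their genes with the lowest p were Esrp1 (-0.66) and Cldn4 (0.51), Pdgfra (-0.48) and Fap (0.90), Eng (0.42) and Emcn (0.87), and Cd79b (-1.53) and Pax5 (2.25), with log2FCs in parentheses. The most abundant were Krt18, Col1a1, Eng and Blnk.

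To find genes that varied like the CD3 chains from tumor to tumor, log2 CPM was compared with the mean of Cd3d, Cd3e and Cd3g over the 8 tumors after each group's mean was subtracted. Among 14637 other genes, the 10 with the highest Pearson r were Gm2573, Nipa1, Mir703, Ramp1, B3galt4, Nutf2-ps1, H2-Ab1, Gm5846, Tmem205 and Gm14038, with r from 0.938 to 0.994. The list holds several pseudogenes and 1 MHC class II gene, H2-Ab1 (r = 0.945, 595.1 CPM on average). Of the other members, Cd8a had an r of 0.917, Zap70 0.808 and Lck 0.804. Cd4 and Cd8b1 had 0.562 and 0.551, and Cd247 had -0.067. With 8 tumors and this many genes, high values of r occur by chance, and they are given as a description.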

How the data were processed

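Read counts per gene, not normalized, were deposited by the authors, whose table also has a gene length column (the authors' value). The submitters' processing notes name HISAT2, HISAT, TopHat2 and the build mm39 without roles, but the coordinates are those of GRCm38, since 98.3% of the 54409 gene identifiers found in GENCODE M21 had the same start and end there. The counting program and strandedness are not given in the sources used here. Tumors were grouped by their labels. Counts were filtered with filterByExpr (minimum count 10, minimum total 15), normalized by TMM and tested with edgeR 4.0.16 (R 4.3.3) by its quasi-likelihood F-test over all 18511 genes, with Benjamini-Hochberg adjustment and the study's thresholds. Standard errors were derived from the F statistic. A floor of 3 counts is 0.0431 to 0.0867 CPM, for counting error only. Ratios used a pseudocount of 1 and exact permutation tests in scipy 1.17.1. Figures were drawn with matplotlib 3.10.9 in Python 3.11.15. Alternatives included limma 3.58.1 and DESeq2 1.42.0. Among pairs of libraries within a group, none was a duplicate; pairs across groups were not compared. The members and gene lists were chosen with earlier results of these data known, and the lists got no test. Named were the members, for most lists the genes past the thresholds or else the 2 with the lowest p, and the most abundant gene of each marker list; other genes are said to be chosen later. The symbols Trgc1, Trgc2 and Trgc4 were matched to the table through RefSeq synonyms, and Rlk to Txk. The steps were tested on simulated data.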

Additional observations from a re-analysis of the deposited data

Results flagged for a closer look

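For the members, their ratios and the summed lists, the 4 tumors of each group were checked for a single tumor far from the other 3. Of 72 groups of values, 0 had such a tumor, where chance gives about 3.6.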

How the results depend on the processing

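Every member was lower in mAb-DXd/IMQ tumors in all 21 alternative fits and relative to Ptprc, an alternative added after the data were seen. Among the 21, glmTreat and the fit without a fold change limit reuse the reported log2FCs. The members past the thresholds numbered 2 in the fit reported, 7 with DESeq2 and 4 with edgeR's newer quasi-likelihood method. Of all 18511 tested genes, 1.06%, 4.25% and 1.57% passed in these fits. With glmTreat against a 1.5-fold change, 0 members passed and 6 had an unadjusted p under 0.05 (edgeR), as did 668 of all tested genes. When 1 tumor was left out, 0 to 3 members passed. DESeq2 added Cd3d (-0.885 on the log2 scale), Cd3e (-0.99), Cd247 (-1.35), Cd8b1 (-1.19) and Zap70 (-0.98). The newer method added Cd247 (-1.35) and Cd8b1 (-1.18). Cd8b1 also passed with library size only (-1.17), no filter (-1.19), a filter of 1 CPM in 4 tumors (-1.19) and limma-voom (-1.25), and lay between -1.40 and -1.03 without 1 tumor. Cd4 (-1.91) and Cd8a (-1.22) did not pass with glmTreat, whose construction asks for more, and lay between -2.09 and -1.77 and between -1.36 and -1.11 without 1 tumor. Genes past the thresholds numbered 197 in the fit reported (101 higher, 96 lower), 358 with no filter, 787 with DESeq2, 7 with glmTreat and 122 with an offset for gene length, and 10 to 203 without 1 tumor. The split was 145 higher and 73 lower with upper-quartile scaling and 118 and 76 with library size only. List genes past the thresholds, 5 as reported, numbered 3 with upper-quartile scaling, 1 with library size only, 11 with no filter, 32 with DESeq2, 10 with the newer method, 0 with glmTreat and 0 to 7 without 1 tumor. The cause of these changes was not tested. The replicate numbers do not pair the tumors, as same-numbered tumors correlated at -0.17, -0.055, 0.079 and -0.067. With the numbers as a replicate block, 14 genes, 0 list genes and 0 members passed, with Cd4 at -1.87 and Cd8a at -1.24. In that fit 8 members had an unadjusted p under 0.05 (edgeR), as did 2859 of all 18511 tested genes. With the block and the length offset together, 14 genes, 0 list genes and 0 members passed, with Cd4 at -1.91 and Cd8a at -1.29. The block left the difference of each ratio as it was by construction, and with 4 pairs its sign-flip test cannot go below 0.125. No ratio passed adjustment with pseudocounts of 0.5 and 5, where 4 tumors per group set the same limit on the smallest p. Without 1 tumor the difference stayed between -0.74 and -0.48 for Cd4 to Cd8a and between -1.05 and -0.71 for Cd4 to Cd3e. All 10 most similar genes were shared with a prior count of 0.5. The level order by coding length from a protein table was not run, since no such table was used here. Cd247, at 31 counts in 1 tumor, is the member most limited by depth.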
